A study of Mus musculus with 15 samples.

Results

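Oxidative phosphorylation is the part of mitochondrial metabolism in which electrons pass along respiratory complexes I to IV and the resulting proton gradient drives the ATP synthase, complex V. The genes described here are those whose platform symbol begins with Nduf (complex I), Sdha, Sdhb, Sdhc or Sdhd (complex II), Uqcr (complex III), Cox4i, Cox5, Cox6, Cox7 or Cox8 (complex IV) or Atp5 (complex V). This rule took in 87 of the 12393 genes that the array measures with a probe set of 1 symbol. Each gene is represented by its probe set with the highest mean over the 15 arrays. Of the 87 genes, 83 passed the filter on low signal and were tested (74 subunits and 9 assembly factors): 39 of complex I, 7 of complex II, 8 of complex III, 12 of complex IV and 17 of complex V.

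The cells were neural stem cells of the subventricular zone, a germinal region along the lateral ventricles, from female C57Bl6/J mice of 6 months, grown as neurospheres over passages and profiled as total RNA on an Affymetrix mouse array. Undifferentiated cells grew with bFGF and EGF, and the other groups were taken 12 h and 24 h after transfer to serum on poly-D-lysine without these factors, with 5 arrays per group. Withdrawal of growth factors, serum and the coating came together and cannot be told apart. The labels do not say whether the 5 arrays of each group derive from independent cultures or animals. P-values therefore reflect only the spread among these samples, which can be technical.

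Complex I oxidises NADH and complex II oxidises succinate, both passing electrons to ubiquinone. Complex III hands them to cytochrome c, and complex IV reduces oxygen. Proliferating neural stem cells are known for a glycolytic metabolism, and a shift towards oxidative phosphorylation has been described as they form neurons. A few subunits exist in paired forms encoded by different genes, which allow 1 complex to differ between tissues. The subunits encoded by mitochondrial DNA are not among the genes chosen by this rule.

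Neural stem cell markers were present: 8 of 8 on the array passed the filter, against 0 of 8 microglial and 0 of 6 endothelial markers and 1 of 6 pericyte and fibroblast markers. So did 5 of 5 astrocyte, 4 of 5 oligodendrocyte, 4 of 5 neuronal and 3 of 3 ependymal markers. At 24 h, 3 stem cell markers were called higher and 2 lower, 2 neuronal higher and 0 lower, and 2 ependymal higher and 1 lower. Over all genes 12.7% were called higher and 19.4% lower. The summed linear signal of the 5 astrocyte markers ran from 556 to 918 in undifferentiated cells, from 750 to 1973 at 12 h and from 1166 to 2732 at 24 h. That of the 5 oligodendrocyte markers ran from 120 to 260 in undifferentiated cells, from 130.1 to 1520 at 12 h and from 446 to 2098 at 24 h. The signal ratio of the 3' to the 5' probe set of actin, a sign of RNA quality, averaged 1.95 ± 0.24 in undifferentiated cells, 2.36 ± 0.15 at 12 h and 2.78 ± 0.37 at 24 h (SD, n = 5 each). The part of either in the results below was not tested. A fit with the actin ratio as a covariate is given beside the counts. The ratio rose from group to group, so that fit cannot separate it from time. The code in a sample's title and the code of its array file disagree for 13 of 15 samples, and following the file code would change the group of 8. Groups were taken from the titles, and the counts under the other assignment stand beside those from the titles.

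After 24 h of differentiation, 0 members were higher and 11 of 83 (13.3%) were lower than in undifferentiated cells at an adjusted p under 0.05 (limma, Benjamini-Hochberg over all 7909 genes tested). Over all genes tested 12.7% were higher and 19.4% lower, so as deposited the share of members that fell lay below that of all genes. This order was not tested, and it turned with quantile normalisation, as given below. The 11 were the complex I assembly factors Ndufaf4 and Ndufaf5, the complex I subunits Ndufa5, Ndufab1, Ndufb1, Ndufb6 and Ndufb8, the membrane anchors Sdhc and Sdhd of complex II, the Cox6b2 form of a complex IV subunit and the Atp5g1 form of the ATP synthase c subunit. At an unadjusted p under 0.05, 6 of 83 members were higher and 12 lower, against 1388 higher and 2004 lower of all 7909 genes. No member of complex III was called in this fit. In a bulk sample, fewer cells that express a gene and less of its RNA per cell cannot be told apart.

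The median log2 difference over the 83 members was -0.04 at 24 h, against -0.06 over all genes tested. The title codes carry 3 suffixes, called A, B and C, whose meaning is not given. Within them the member median was -0.40, 0.063 and -0.054, against 0.063, -0.077 and -0.083 over all genes. The members thus lay below all genes in A, which has 1 array at 24 h. They lay above all genes in B and in C, which has 1 undifferentiated array. The counts depended on how arrays were put on a common scale. Between-array scaling of the deposited values is not stated in the sources used here. Their 90th percentile ran only from 5.37 to 5.48 over the 15 arrays on the log2 scale, while their median ran from 0.95 to 1.5. With each array centred on its median, 6 members (7.23%) fell and 0 rose (14% and 18.1% over all genes). With quantile normalisation 22 (26.5%) fell, 10 of them among the 11, and 1 rose (16.5% and 20.1% over all genes). With the suffix as a block 15 (18.1%) fell and 5 rose (23.7% and 18.1% over all genes), and with both 26 (31.3%) fell and 4 rose (20.1% and 24.1%). The share of members that fell was therefore below that of all genes as deposited, after centring and with the block, and above it in both fits with quantile normalisation. The 5 that rose with the block were Cox6a1, Ndufa1, Ndufa3, Ndufv3 and Uqcrb, and the 4 with both were Cox7a1, Ndufa1, Ndufa3 and Ndufv3. Against the values as deposited, centring moved the median of all genes at 24 h by 0.15 and quantile normalisation by 0.11 on the log2 scale. Relative to that median, the members lay at 0.022 as deposited, 0.022 after centring and -0.22 after quantile normalisation. Grouped by the file codes, limma called 0 members in either direction, with 0 higher and 1 lower at an unadjusted p under 0.05. In that fit 0 of all 7909 genes were called, so the loss of calls was not particular to the members. With the actin ratio as a covariate limma also called 0 members, with 0 higher and 12 lower at an unadjusted p under 0.05. Over all genes that fit called 0.0632% lower and 0.101% higher. Leaving out undifferentiated replicate 1 gave 8 lower and 4 higher.

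At 12 h, 0 members were higher and 2 were lower than in undifferentiated cells, against 3.3% higher and 4.56% lower over all genes. They were Ndufaf4 and Cox6b2. The median member difference was -0.10 on the log2 scale, against 0.0045 over all genes, and 65 of 83 members were negative. At an unadjusted p under 0.05, 11 of 83 members were lower and 1 higher, against 1100 lower and 977 higher of all 7909 genes. Neither call held in every alternative: the count was 0 when the fit used only the groups compared, when suffix C was left out, when any of 5 single arrays was left out, by the file codes and with the actin ratio as a covariate. Over all genes the shares lower and higher were 2.98% and 2.12% with only the groups compared and 0.443% each without suffix C. By the file codes 0 of all genes were called, and with the actin ratio 0.228% were lower and 0.518% higher. With the suffix as a block 9 fell and 0 rose (10.7% and 7.99% over all genes): Ndufaf4, Ndufaf5, Ndufa5, Ndufb1, Sdhd, Uqcrfs1, Cox6b2, Cox7a2l and Atp5md. With quantile normalisation alone 3 fell and 0 rose (6.13% and 5.74% over all genes): Cox8a, Ndufaf4 and Uqcrfs1. With quantile normalisation and the block 12 fell and 1 rose (10.4% and 11.3%).

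Between 24 h and 12 h, 0 members were higher and 0 lower (limma adjusted p), against 0.0632% and 0.354% over all genes. At an unadjusted p under 0.05, 1 of 83 was higher and 2 lower, against 369 higher and 819 lower of all 7909 genes. The median difference was 0.059, against -0.058 over all genes.

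**Figure D1:**
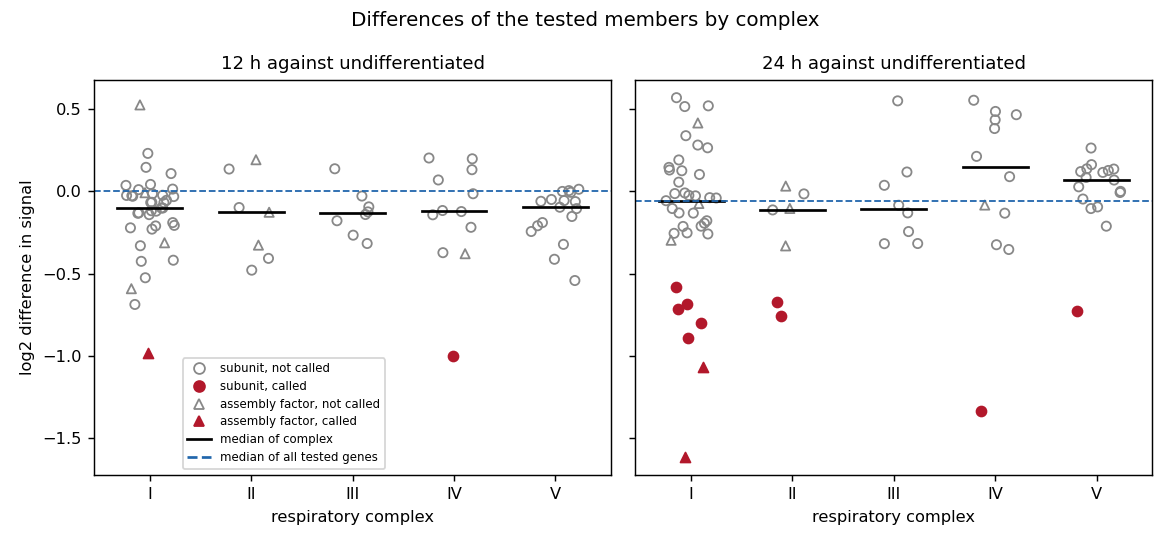
Log2 difference in signal of the 83 tested members by respiratory complex (x axis), at 12 h (left) and 24 h (right) against undifferentiated cells. Circles are subunits, triangles assembly factors, filled symbols passed an adjusted p of 0.05, black lines are complex medians and the dashed line is the median of all tested genes. The 2 filled symbols at 12 h and the 11 at 24 h all lie below 0.

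Complex I holds 39 of the 83 members, and 7 of these fell at 24 h (17.9%, against 19.4% over all genes). Of its 5 tested assembly factors 2 fell, Ndufaf4 and Ndufaf5. Ndufaf4, which acts in the early assembly of the complex (gene at chr4:24898083-24905001, GRCm38.p6), had log2 signals of 5.02, 4.75, 4.52, 4.33 and 4.17 in undifferentiated arrays, 3.38, 3.51, 4.23, 4.12 and 2.64 at 12 h and 3.62, 2.87, 3.00, 2.57 and 2.65 at 24 h. Every 24 h array lay below every undifferentiated array, while the 12 h arrays reached into the undifferentiated range. The fall was 0.98 ± 0.28 at 12 h (SE, n = 5 per group; adjusted p = 0.0402, limma) and 1.61 ± 0.28 at 24 h (adjusted p = 0.00078), or 3.06-fold at 24 h. A further Ndufaf4 probe set had a log2 difference of -1.27 at 24 h. The 12 h call was lost when any of 8 of the 10 arrays of that comparison was left out, or without the filter on low signal.

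Ndufaf5 (chr2:140170584-140218965, GRCm38.p6), which hydroxylates an arginine of the core subunit Ndufs7 during assembly in human cells, had log2 signals of 2.56, 2.64, 2.72, 2.59 and 2.24 at 24 h, against 4.04, 3.30, 3.40, 3.61 and 3.74 in undifferentiated cells. The groups did not overlap, and the spread among the 24 h arrays was small (SD 0.18). Ndufaf5 fell by 1.07 ± 0.21 (log2; adjusted p = 0.0017). The remaining complex I assembly factors did not pass at 24 h: Ndufaf1 had -0.30 ± 0.12, Ndufaf7 -0.073 ± 0.12 and Ndufaf3 0.42 ± 0.20.

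Among the 34 tested subunits of complex I, 5 fell at 24 h (14.7%) and 0 rose. Ndufa5, an accessory subunit of the matrix arm (chr6:24518662-24527690), had log2 signals of 5.72, 5.18, 5.40, 5.86 and 5.42 at 24 h, against 6.87, 6.11, 6.08, 6.17 and 6.37 in undifferentiated cells. The groups did not overlap, and it fell by 0.80 ± 0.17 (adjusted p = 0.0027). Its second probe set had -0.47. Members whose 24 h and undifferentiated arrays did not overlap numbered 4, all lower, namely Ndufa5, Ndufaf4, Ndufaf5 and Sdhd (over all genes 16% were apart and lower and 9.04% apart and higher). At 12 h they were Ndufa5 and Ndufb8, both lower (4.74% of all genes lower and 3.41% higher). Neither passed the adjusted test there as deposited and without the suffix block.

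Ndufb8, an accessory subunit of the membrane arm, had a split pattern at 24 h. Its log2 signals were 6.94, 6.25, 6.20, 7.59 and 7.48 at 24 h, against 7.91, 7.56, 7.42, 7.43 and 7.71 in undifferentiated cells. The first 3 arrays at 24 h lay below every undifferentiated array, and the other 2, both of suffix C, lay within the undifferentiated range but below its suffix C array at 7.71. The fall of 0.71 ± 0.24 (adjusted p = 0.0301) was lost when only these groups were fitted and when undifferentiated replicate 1 or 5, or 24 h replicate 2 or 3, was left out (adjusted p up to 0.0829), and after centring.

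Ndufab1, the mitochondrial acyl carrier protein that also serves fatty acid synthesis and iron-sulfur cluster assembly, fell by 0.68 ± 0.18 at 24 h (adjusted p = 0.0083). Its log2 signals were 6.90, 6.90, 6.91, 7.45 and 7.03 at 24 h, against 8.06, 7.53, 7.24, 7.67 and 8.11 in undifferentiated cells. Replicate 4 was the one 24 h array inside the undifferentiated range. Of its other probe sets 1 gave 0.10 and 1 gave -0.48, so its probe sets disagreed in sign, and the call was lost with the mean over probe sets or after centring. Ndufb6, a membrane arm subunit, fell by 0.58 ± 0.17 (adjusted p = 0.0143; lost after centring), and its second probe set had -0.38. Ndufb1 fell by 0.89 ± 0.22 (adjusted p = 0.0067) at a low level, with a mean log2 signal of 1.51 over all arrays against a filter level of 0.51. Ndufb1 lost its call after centring or quantile normalisation.

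Most complex I subunits showed differences under 0.5 on the log2 scale as deposited: 26 of 34 at 24 h. The tested core subunits were among them, with Ndufv1 at -0.024 ± 0.14, Ndufs1 at -0.19 ± 0.14 and Ndufs3 at -0.21 ± 0.17. Of the other core subunits, Ndufv2 had -0.027, Ndufs7 -0.25 and Ndufs8 0.10. The most positive member at 24 h was Ndufa1, a small membrane arm subunit, with 0.57 ± 0.26 (adjusted p = 0.104). With the suffix as a block Ndufa1 rose by 0.53 ± 0.15 (adjusted p = 0.0118), and with quantile normalisation and the block by 0.33 ± 0.11 (adjusted p = 0.0292). Ndufa4, which has the highest mean signal of the Nduf genes and is now placed in complex IV, had 0.13 ± 0.26. Complex I members called at 24 h after quantile normalisation alone but not as deposited were Ndufs3, Ndufa2 and Ndufv3. Ndufs3 fell by 0.31 ± 0.097 and Ndufa2 by 0.38 ± 0.13 (limma, adjusted p = 0.0204 and 0.0355). Ndufv3 rose by 0.40 ± 0.14 (limma, adjusted p = 0.0426). Over all genes 16.5% fell and 20.1% rose in that fit.

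**Figure D2:**
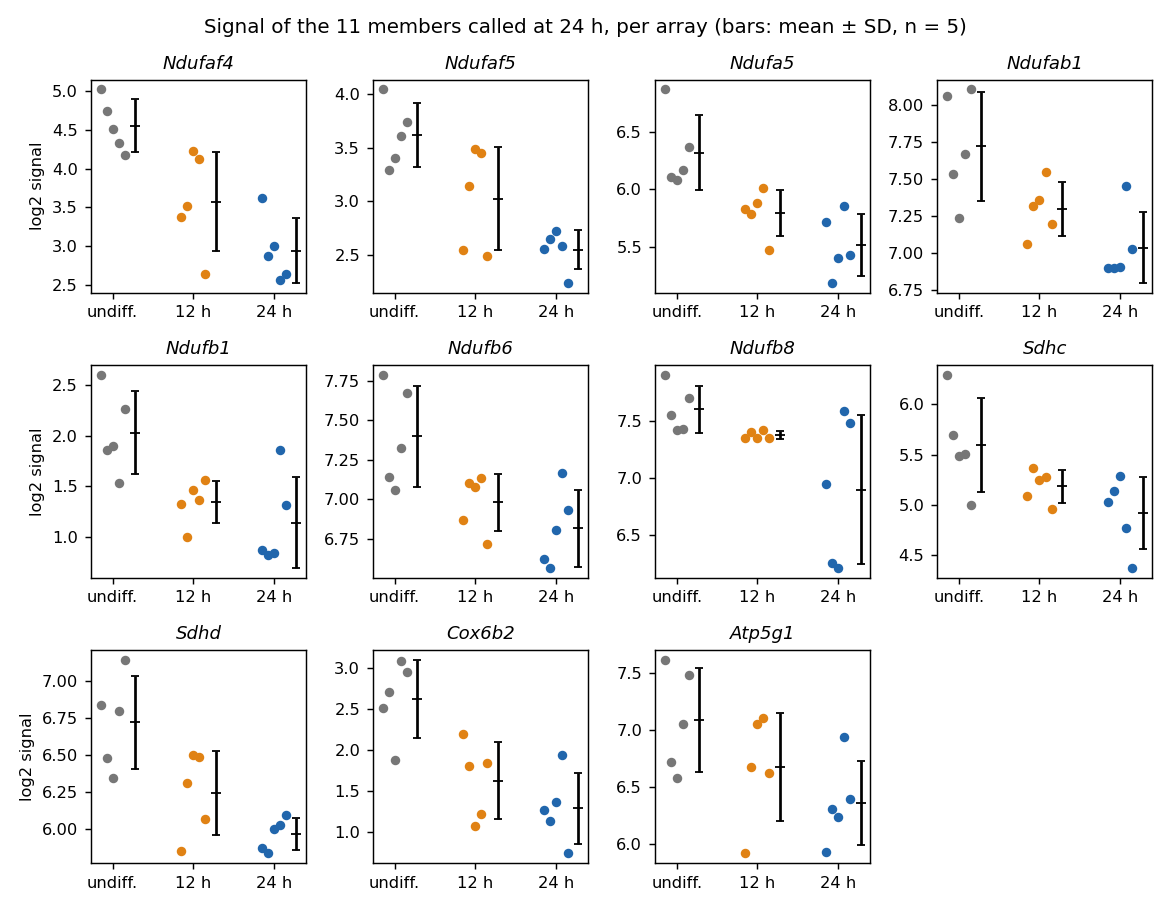
Log2 signal per array (points) in undifferentiated cells and at 12 h and 24 h for the 11 members that fell at 24 h. Bars give the mean ± SD (n = 5 arrays per group). Ndufaf4, Ndufaf5, Ndufa5 and Sdhd have all 24 h arrays below all undifferentiated arrays, and Ndufb8 has 2 of its 24 h arrays at the undifferentiated level.

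Complex II is the smallest complex and has no subunit of mitochondrial origin. Its membrane anchors Sdhc and Sdhd, which bind ubiquinone, fell at 24 h. Its catalytic subunits Sdha, the flavoprotein, and Sdhb, the iron-sulfur protein, were not called as deposited, while Sdhb was called lower after quantile normalisation. Sdhd (chr9:50596340-50603849) had log2 signals of 5.87, 5.84, 6.00, 6.02 and 6.10 at 24 h, against 6.84, 6.48, 6.34, 6.80 and 7.14 in undifferentiated cells. The groups did not overlap, and the fall was 0.75 ± 0.16 (adjusted p = 0.003), or 1.69-fold. Its second probe set had -0.43. Sdhc fell by 0.67 ± 0.21 (adjusted p = 0.022), with groups that overlapped over all arrays: 5.03, 5.13, 5.29, 4.77 and 4.37 at 24 h against 6.29, 5.69, 5.48, 5.50 and 5.00 in undifferentiated cells. The lowest undifferentiated value, in replicate 5, and the lowest 24 h values, in replicates 4 and 5, were all of suffix C. Within each of the 3 suffixes the 24 h arrays lay below the undifferentiated arrays, and with the suffix as a block Sdhc fell by 0.55 ± 0.16 (adjusted p = 0.0122). The Sdhc call was lost without suffix C and when any of 3 single arrays was left out (adjusted p up to 0.062).

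Sdha had -0.015 ± 0.16 and Sdhb -0.11 ± 0.22 at 24 h as deposited. Within arrays, Sdhd fell relative to Sdha by 0.74 on the log2 scale at 24 h, with no overlap between the groups (exact permutation test, two-sided p = 0.00794, the smallest that 5 against 5 allows; 0.0413 adjusted over 26 tests of 13 gene pairs at both times). The shift of Sdhd relative to Sdhb was -0.64 and did not pass (adjusted p = 0.0688, exact permutation test). All 26 pair tests, also those given below for complexes IV and V, were added after the values had been seen. They use the same arrays as the limma calls and are no independent support for them. After quantile normalisation the shift of Sdhd against Sdha was -0.60. With that scaling Sdhb itself fell by 0.31 ± 0.11 (limma, adjusted p = 0.0426), and Sdha had -0.15 ± 0.098 (adjusted p = 0.245). Sdhb was also called lower with quantile normalisation and the block. The assembly factors Sdhaf1, Sdhaf2 and Sdhaf4 had differences of -0.33, -0.10 and 0.032 at 24 h and did not pass.

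Of the 8 tested genes of complex III, limma called 0 in any comparison as deposited and without the suffix block, with 1 at an unadjusted p under 0.05 at 24 h. At 24 h their differences ran from -0.32 for Uqcr10 to 0.55 for Uqcrb, a subunit that helps bind ubiquinone. Uqcrb, the brightest of the Uqcr genes, had log2 signals of 8.79, 9.28, 9.20, 9.65 and 9.90 at 24 h, against 9.15, 8.96, 8.35, 8.39 and 9.20 in undifferentiated cells. The groups overlapped, and the 95% interval of the difference was 0.042 to 1.06 (limma; adjusted p = 0.0909). With the suffix as a block Uqcrb rose by 0.46 ± 0.16 (adjusted p = 0.0315), a call that was not made when quantile normalisation was added (adjusted p = 0.0744). The Rieske iron-sulfur protein Uqcrfs1 had -0.24 ± 0.17, with an interval of -0.60 to 0.12, and the core protein Uqcrc1 had -0.32 ± 0.17, with an interval of -0.67 to 0.033. After quantile normalisation 3 of the 8 fell at 24 h, against 16.5% of all genes. Among these 3, Uqcrc1 fell by 0.44 ± 0.11 (adjusted p = 0.0081) and Uqcrfs1 by 0.38 ± 0.086 (adjusted p = 0.0039). With the suffix as a block and no normalisation both fell too, Uqcrc1 by 0.39 ± 0.13 (adjusted p = 0.0274) and Uqcrfs1 by 0.32 ± 0.10 (adjusted p = 0.0209). In that fit Uqcrfs1 also fell at 12 h, by 0.32 ± 0.10 (adjusted p = 0.0416). After quantile normalisation alone its fall at 12 h was 0.33 ± 0.086 (limma, adjusted p = 0.0261).

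In complex IV, 1 of 12 tested members fell at 24 h as deposited (8.33%, against 19.4% over all genes). Cox6b2, the form of subunit 6B known from testis, had log2 signals of 2.51, 2.70, 1.87, 3.08 and 2.95 in undifferentiated cells, 2.20, 1.81, 1.07, 1.22 and 1.84 at 12 h and 1.27, 1.13, 1.37, 1.93 and 0.74 at 24 h. Undifferentiated replicate 3 lay within the range of the differentiating cells, and the other 4 undifferentiated arrays above them. Cox6b2 fell by 0.998 ± 0.26 at 12 h (adjusted p = 0.0325) and by 1.33 ± 0.26 at 24 h (adjusted p = 0.0019), or 2.52-fold at 24 h. The 12 h call was lost after quantile normalisation and on leaving out any of 6 single arrays. It is a weakly measured gene, with a mean log2 signal of 1.85.

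Its widely expressed counterpart Cox6b1 was not called and had 0.38 ± 0.27 at 24 h. Relative to Cox6b1, Cox6b2 moved by -0.98 at 12 h and by -1.72 at 24 h, with no overlap between the groups at either time (exact permutation test, adjusted p = 0.0413 over the same 26 tests). After quantile normalisation the 24 h shift was -1.17. Of the other forms in complex IV only Cox7a1, Cox7a2 and Cox7a2l were tested as pairs, and none of these pairs passed at either time (exact permutation test, lowest adjusted p = 0.0774). The muscle form Cox7a1 had 0.49 ± 0.20 (adjusted p = 0.0693) and the broad form Cox7a2 0.090 ± 0.23 at 24 h. The relative shift of Cox7a1 against Cox7a2 was 0.40 (exact permutation test, adjusted p = 0.261), and 0.79 after quantile normalisation. Cox7a1 itself rose by 0.52 ± 0.18 with quantile normalisation and the suffix block (adjusted p = 0.0287). Its log2 signal minus that of Cox7a2 averaged -7.83 in undifferentiated cells and -7.43 at 24 h as deposited. It is thus weakly measured next to Cox7a2.

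Cox4i1, the main form of subunit 4, had 0.47 ± 0.31 and Cox6a1, the brightest complex IV gene, 0.55 ± 0.35 at 24 h (adjusted p = 0.261 and 0.238). The 2 highest 24 h arrays of Cox6a1, at 10.67 and 10.99 against at most 10.20 in undifferentiated cells, were both of suffix C. With the suffix as a block Cox6a1 rose by 0.39 ± 0.15 (adjusted p = 0.0451), and with quantile normalisation and the block it had -0.028 ± 0.085 (adjusted p = 0.813). The alternative forms Cox4i2, known from lung, and Cox6a2, known from heart and muscle, stayed below the filter level, as did Cox8b and Cox8c. Cox7a2l, counted here among the assembly factors, had -0.083 ± 0.16. Cox8a had -0.32 ± 0.22 as deposited. It fell by 0.60 ± 0.10 after quantile normalisation (adjusted p = 0.00069) and by 0.40 ± 0.14 with the suffix as a block (adjusted p = 0.028). At 12 h Cox8a fell by 0.43 ± 0.10 after quantile normalisation (limma, adjusted p = 0.0168). Cox5a had -0.13 at 24 h as deposited and fell by 0.45 ± 0.087 after quantile normalisation (limma, adjusted p = 0.0015). It was also called lower with quantile normalisation and the block.

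Of the 17 complex V genes, 1 fell at 24 h as deposited (5.88%, against 19.4% over all genes). The proteolipid subunit c forms the rotating ring of the ATP synthase, and Atp5g1, Atp5g2 and Atp5g3 encode the same mature protein with different import sequences. Atp5g1 (chr11:96072793-96075694) had log2 signals of 5.93, 6.31, 6.24, 6.94 and 6.40 at 24 h, against 7.62, 6.72, 6.58, 7.05 and 7.48 in undifferentiated cells. Of the 24 h arrays only replicate 4 lay above the lowest undifferentiated array. The fall was 0.73 ± 0.25 (adjusted p = 0.0374), and it was lost when any of 7 single arrays was left out or after centring.

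Atp5g2 had 0.13 ± 0.20 and Atp5g3 0.12 ± 0.27 at 24 h, and neither was called as deposited. Relative to Atp5g2, Atp5g1 moved by -0.85 with no overlap between the groups, and relative to Atp5g3 also by -0.85 without overlap (exact permutation test, adjusted p = 0.0413 for each over the same 26 tests). After quantile normalisation these shifts were -0.65 and -0.40. In that fit Atp5g3 itself fell by 0.38 ± 0.085 (adjusted p = 0.00353), a change of sign. The subunits Atp5a1 and Atp5b, which form the head of the enzyme, had 0.028 ± 0.23 and -0.0066 ± 0.22 as deposited. After quantile normalisation Atp5a1 fell by 0.33 ± 0.12 (adjusted p = 0.0426) and Atp5b by 0.32 ± 0.081 (adjusted p = 0.0076). Atp5o, at -0.094 as deposited, fell by 0.35 ± 0.098 in that fit (limma, adjusted p = 0.0113).

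**Figure D3:**
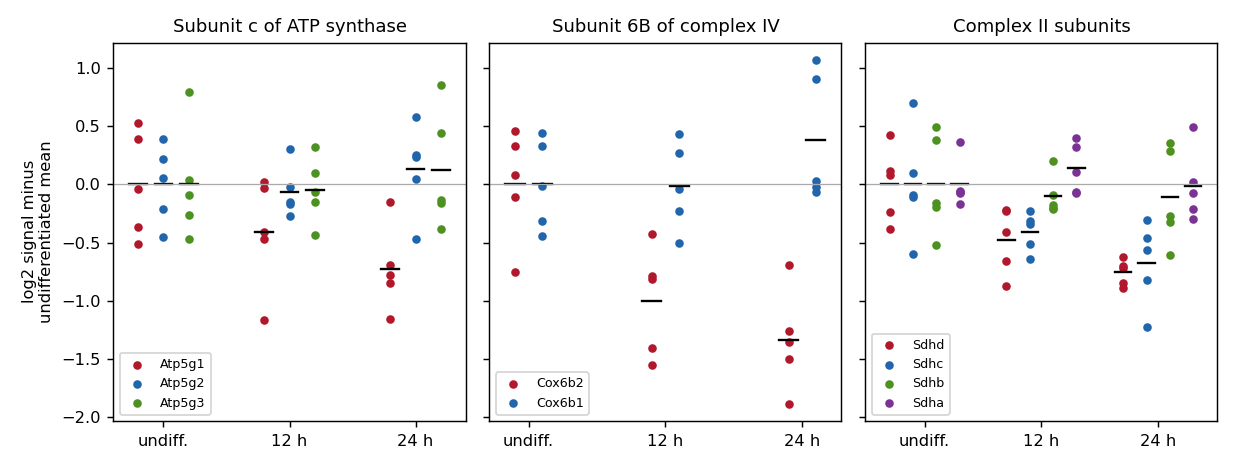
Log2 signal per array minus the mean of the undifferentiated arrays of the same gene, for the genes of ATP synthase subunit c, complex IV subunit 6B and complex II. Points are arrays, black lines are group means, and undifferentiated cells, 12 h and 24 h run from left to right. Atp5g1, Cox6b2, Sdhd and Sdhc lie below 0 on average at 24 h. Sdhb and Sdha lie at -0.11 and -0.015 as deposited and at -0.31 and -0.15 after quantile normalisation. Atp5g2, Atp5g3 and Cox6b1 lie above 0 as deposited and at -0.12, -0.38 and 0.00067 after quantile normalisation.

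The stretches upstream of the transcription start are shown for Atp5g1 and Cox6b2, which fell, and for a counterpart of each that was not called, Atp5g2 and Cox6b1, since the genes of a pair encode the same subunit. They are RefSeq sequence of GRCm38.p6 on the minus strand, limited to bases outside any annotated gene. Atp5g1 covers chr11:96075695-96075881, Atp5g2 chr15:102671048-102671297, Cox6b2 chr7:4753095-4753225 and Cox6b1 chr7:30626115-30626364. Capitals mark matches on either strand to CCAAT, the NF-Y motif (ATTGG on the other strand), or to the motif of the respiratory regulator NRF1, which stands in capitals in Atp5g2 and may have any letter in place of its T.
Atp5g1: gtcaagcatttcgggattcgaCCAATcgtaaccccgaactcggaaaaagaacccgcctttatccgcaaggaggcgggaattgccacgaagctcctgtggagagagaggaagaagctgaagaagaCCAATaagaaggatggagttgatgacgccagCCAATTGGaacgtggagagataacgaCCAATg
Atp5g2: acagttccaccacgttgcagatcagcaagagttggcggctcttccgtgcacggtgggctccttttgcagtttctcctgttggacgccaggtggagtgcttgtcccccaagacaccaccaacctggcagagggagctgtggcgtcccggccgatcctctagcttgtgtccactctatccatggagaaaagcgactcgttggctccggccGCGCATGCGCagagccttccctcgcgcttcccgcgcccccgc
Cox6b2: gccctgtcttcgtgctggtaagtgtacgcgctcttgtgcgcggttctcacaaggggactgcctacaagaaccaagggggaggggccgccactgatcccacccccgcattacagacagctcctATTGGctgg
Cox6b1: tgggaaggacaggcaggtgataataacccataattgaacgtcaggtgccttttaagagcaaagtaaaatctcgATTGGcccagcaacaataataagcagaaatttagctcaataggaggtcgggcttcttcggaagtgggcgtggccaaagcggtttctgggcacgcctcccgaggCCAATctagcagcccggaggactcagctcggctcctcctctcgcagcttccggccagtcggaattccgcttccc

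Atp5g1 held 5 matches to CCAAT in 187 bases, 2 of which overlap as the palindrome CCAATTGG, and no NRF1 match. Atp5g2 held 1 NRF1 match and 0 matches to CCAAT. Cox6b2 held 1 match to CCAAT in 131 bases, and Cox6b1 held 2. In windows of 250 bases before the start of 27025 genes, 37.5% had a CCAAT match and 0.248% had at least 5. CCAAT was searched for after these sequences had been seen. A window was given for 73 of the 87 members. The NRF1 motif was present in 11 of them (15.1%), against 4.23% of all genes. It was present in 3 of the 10 windows of members that fell at 24 h and in 8 of the 63 others. CCAAT was present in 29 of the 73 (39.7%): in 2 of the 10, those of Atp5g1 and Cox6b2 shown above, and in 27 of the 63 others (42.9%). The ETS motif CCGGAAGT, bound by GABP, was found in 4.11% of members and 3.23% of all genes, and the E-box CACGTG in 8.22% and 6.86%. Both strands were searched, and the shares are a description of these letters.

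The signal of the members varied together between arrays. Their mean log2 signal per array was 6.97 ± 0.30 in undifferentiated cells, 6.83 ± 0.13 at 12 h and 6.89 ± 0.28 at 24 h (SD, n = 5 each). Undifferentiated replicate 1 had the highest mean, 7.31, and undifferentiated replicate 5 and 24 h replicate 4, both of suffix C, had 7.26 each. The groups overlapped. Over the 15 arrays the member mean had a Pearson correlation of -0.76 with the array's median signal over all probe sets, which share the array and its scaling. After quantile normalisation the group means were 7.02 ± 0.17, 6.87 ± 0.049 and 6.80 ± 0.11 for undifferentiated cells, 12 h and 24 h.

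**Figure D4:**
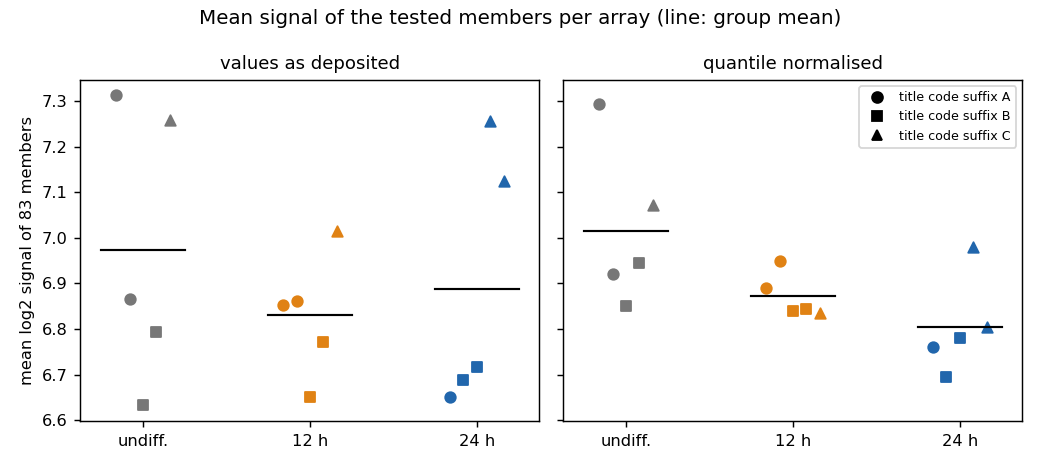
Mean log2 signal of the 83 tested members on each array, as deposited (left) and after quantile normalisation (right), for undifferentiated cells, 12 h and 24 h. Symbols show the suffix of the title code and lines the group means. As deposited the suffix C arrays are the highest of the 12 h and 24 h groups, and after quantile normalisation the group means fall in order of time at 7.02, 6.87 and 6.80.

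With group means removed, the median Pearson correlation between pairs of members, over 15 arrays, was 0.68 as deposited and 0.37 after quantile normalisation. Within complexes it was 0.84 for complex V, 0.81 for complex III, 0.79 for complex IV, 0.68 for complex I and 0.19 for complex II as deposited. Complex II was the lowest under both scalings. The non-member genes most like the member mean over the 15 arrays were Tmem242 (Pearson correlation 0.94), Gm12338 (0.93), Swi5 (0.91), Mpc1 (0.90) and Grcc10 (0.90).

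Other mitochondrial genes were read from 4 lists. At 24 h, 11 of 32 tested assembly factors and electron carriers outside the prefixes fell (34.4%), 7 of 17 regulators of mitochondrial biogenesis (41.2%), 7 of 15 genes of pyruvate dehydrogenase and the citric acid cycle (46.7%) and 6 of 17 carriers, porins and inner membrane proteins (35.3%). As deposited none of the 4 lists had a member that rose, and over all genes 19.4% fell. Their median log2 differences were -0.38, -0.28, -0.33 and -0.31 in the same order, against -0.02 for the 74 subunits, which turned to 0.13 after centring and -0.19 after quantile normalisation. The 4 list medians were negative after centring and after quantile normalisation too. With centring 8 (25%), 5 (29.4%), 5 (33.3%) and 3 (17.6%) fell, against 14% of all genes. With quantile normalisation 9 (28.1%), 4 (23.5%), 10 (66.7%) and 9 (52.9%) fell, against 16.5%. At 12 h, 1, 0, 1 and 0 fell as deposited, against 4.56% of all genes.

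Among them, cytochrome c (Cycs), the carrier between complexes III and IV, fell by 1.01 ± 0.28 at 24 h (adjusted p = 0.0118), and the copper chaperone of complex IV, Cox17, by 0.87 ± 0.16 (adjusted p = 0.0011). The coactivator PGC-1alpha (Ppargc1a) fell by 0.87 ± 0.17 (adjusted p = 0.002) and its relative Pprc1 by 0.97 ± 0.26 (adjusted p = 0.0092). In the citric acid cycle Ogdh, a subunit of the 2-oxoglutarate dehydrogenase complex, fell by 1.01 ± 0.25 and Suclg2, a subunit of succinyl-CoA ligase, by 0.95 ± 0.12 (adjusted p = 0.0069 and 0.00015). The import channel Tomm40 fell by 1.39 ± 0.32 and the inner membrane fusion protein Opa1 by 0.92 ± 0.22 (adjusted p = 0.0046 and 0.0051).

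**Figure D5:**
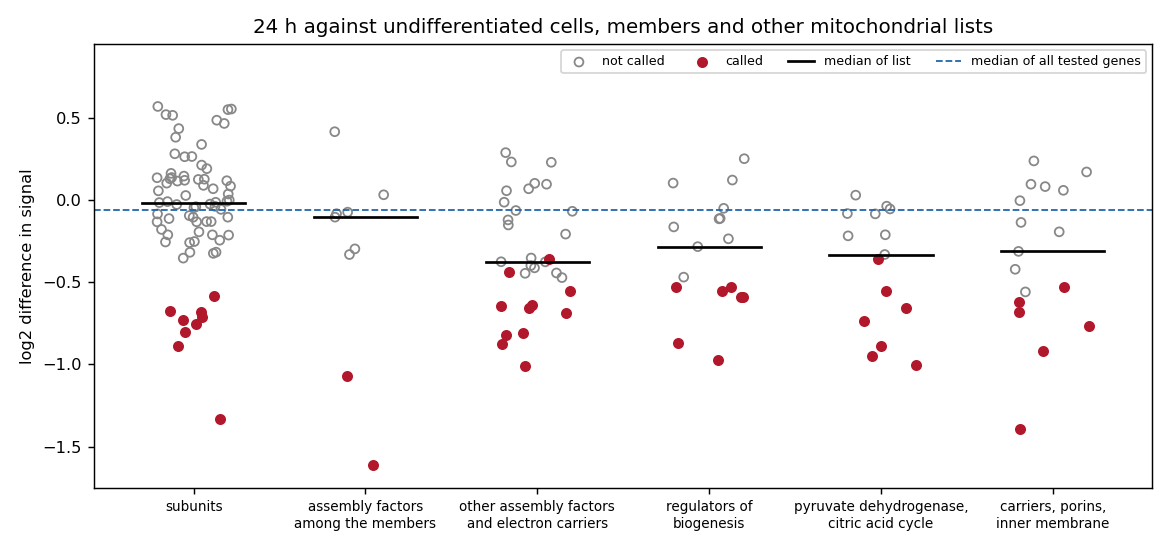
Log2 difference at 24 h against undifferentiated cells for the subunits, the assembly factors among the members and 4 further mitochondrial lists. Filled points passed an adjusted p of 0.05, black lines are list medians and the dashed line is the median of all tested genes. The medians of the 4 further lists lie between -0.38 and -0.28, and that of the 74 subunits at -0.02 as deposited, 0.13 after centring and -0.19 after quantile normalisation.

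The 95% intervals show how much change the arrays leave possible for members that were not called. At 24 h the interval of 61 of the 65 subunits not called lay within 1 log2 unit on either side of 0, the exceptions being Cox4i1, Cox6a1, Ndufa1 and Uqcrb. At 12 h it did so for 71 of 73, the exceptions being Atp5md and Ndufb1.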

How the data were processed

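Total RNA was labelled and hybridised to 1 Affymetrix array per sample, 15 in all, per the labels' protocols. The submitters' processing notes name MAS5 without a version. The deposited values have no stated log base. The 4 hybridisation spike-ins rose by 1.02 ± 0.054 (SD, 15 arrays) per log10 unit of their standard concentration, so the values the authors deposited were read as log10. They were multiplied by 3.32 to give log2 signals, with no further scaling. The number of arrays limits the precision.

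Symbols came from the platform annotation; probe sets with several symbols (8 of member genes) were not used. Genes were tested where the mean signal exceeded the 40th percentile over probe sets (log2 0.51). A single limma model (limma 3.58.1 in R 4.3.3) held all arrays, with group means and a variance trend, and used Benjamini-Hochberg adjustment over 7909 genes and calls at 0.05; errors after ± on differences are standard errors. The fit was tested on simulated data. Title codes carry 3 suffixes whose meaning is not given; the suffix was used as a block and within-suffix values were computed. Alternatives changed scaling, filter, probe set choice, variance trend, samples, groups and single arrays.

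Members and lists were chosen with earlier results of these data known. Genes were named by rule: per complex and comparison the 3 largest calls each way, the brightest member, and paired forms; 2 calls each way per further list; and the 5 genes most like the member mean. Ndufa5, Ndufab1, Ndufb6, Ndufb8 and other members outside this rule were named after their values were seen.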

Additional observations from a re-analysis of the deposited data

Results flagged for a closer look

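In 75 groups of 5 arrays examined, 2 had an array far from the other 4, and chance alone flags about 1 group in 20. Ndufab1 had a log2 signal of 7.45 in 24 h replicate 4, against 7.03 in the nearest of the other 24 h arrays. Sdha had a log2 signal of 7.59 in undifferentiated replicate 5, against 7.18 in the nearest of the other undifferentiated arrays. Both arrays carry suffix C.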

How the results depend on the processing

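The counts of members that fell at 24 h (11) moved to 6 with median centring, 22 with quantile normalisation, 26 with quantile normalisation and the suffix as a block (an alternative chosen after seeing the data), and 0 both by file codes and with the actin ratio as a covariate. By file codes 0 of all genes were lower at 24 h, and with the actin covariate 0.0632%. The cause of these moves was not tested. Members that rose at 24 h (0) became 1 with quantile normalisation, 5 with the suffix block (18.1% of all genes) and 4 with both. Leaving out single arrays gave 8 to 11 lower and 0 to 4 higher at 24 h, 0 to 4 lower at 12 h and 0 to 1 higher between 24 h and 12 h. Members lower at 12 h (2) became 1 with no filter or a filter at the 60th percentile. They became 0 with only the groups compared, without suffix C, by file codes or with the actin covariate. By file codes 0 of all genes were lower at 12 h, and with the actin covariate 0.228%. The count was 3 with quantile normalisation, 9 with the suffix block, and 12 lower with 1 higher under quantile normalisation and block. The median member difference at 24 h was -0.34 with the actin covariate and -0.40 within suffix A, where that between 24 h and 12 h was -0.22. Atp5g3 at 24 h turned to -0.38 under quantile normalisation, alone or with the block, and Cox6b2 at 12 h to 0.44 by file codes. Of the 11 calls at 24 h, 8 were kept with each single array left out, the exceptions being Atp5g1, Ndufb8 and Sdhc. Ndufa5, Ndufaf4, Ndufaf5 and Sdhd were kept under all alternatives other than file codes and the actin covariate. So was Cox6b2 in those that tested it, but it did not pass the filter at the 60th percentile. Low signal limits Ndufb1 and Cox6b2.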
